A study of Mus musculus with 17 samples.

Results

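Bone marrow-derived macrophages of wild-type mice were compared 2 h after addition of R837 and without treatment, by chromatin immunoprecipitation and sequencing of RNA polymerase II. R837 (imiquimod) is a small molecule that activates Toll-like receptor 7 (TLR7), an endosomal receptor for single-stranded RNA. The comparison rests on 4 libraries, 2 labelled WT R837 2 h and 2 labelled WT untreated, of the 16 in the series that have a summit list. The other 12 come from later WT times (4 h, 6 h) and from N4bp1 KO macrophages without treatment and at each R837 time. Macrophages were cultured from bone marrow, and the immunoprecipitation used the AbFlex RNA Pol II antibody. The labels used here give no R837 dose, and they do not say whether the 2 libraries of a group came from separate animals or cultures, so p-values measure the spread between libraries, which may be technical. The question was which genes had polymerase among their strongest sites after TLR7 activation, and where along the genes it lay.

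RNA polymerase II transcribes all protein-coding genes. At many genes it pauses shortly downstream of the start and is then released into the gene body, and it continues past the annotated end before it leaves the DNA. In macrophages TLR7 signals through the adaptor MyD88 to NF-kB, a family of transcription factors held in the cytoplasm by inhibitory IkB proteins, and to MAP kinases and interferon regulatory factors. Genes for chemokines, cytokines and inhibitors of the same pathway are the known early targets of such signals.

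The deposited data are lists of summits, the points of highest enrichment within each called peak, with a score per summit that is the authors' own. The lists held 10769 and 11010 summits in the WT R837 2 h libraries, against 24720 and 20607 in the WT untreated libraries. To set them side by side, only the 8394 highest-scoring summits of every library were kept, as many as its shortest list holds. A gene was given the rank of the best summit in its annotated span plus 1 kb on each side, in which rank 1 is the highest score. Ranks were turned into a rank score on a log2 scale, which is 13.04 for rank 1 and 0 where the gene had no summit in the shortened list; a difference of 1 is a rank 2 times better. The rank score places a gene among the strongest sites of its own library and is not an amount of polymerase.

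Markers fitted the macrophage label. Of 13 macrophage markers, 12 and 10 had a summit in the WT R837 2 h lists and 12 and 11 in the WT untreated lists. No B cell, mast cell, erythroid, neutrophil or stromal marker had a summit in any of the 4 shortened lists. The summed rank score of the T and NK cell markers was 0 in both WT R837 2 h libraries, against 1.27 and 1.59 in the WT untreated libraries; that of the dendritic cell markers was 5.05 and 4.21, against 1.17 and 0.95. A single dendritic cell marker, Xcr1, had a summit in each library and was itself a called rise (3.57; adjusted p = 0.0114 by limma), and Il7r of the T and NK cell markers was a called fall (-1.14; adjusted p = 0.0159); both are named after their values were seen. Their part in the results below was not tested.

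R837 changed the set of leading genes. Of 8475 tested genes, 299 rose in rank score in WT R837 2 h macrophages (3.53% of tested genes) and 1093 fell (12.9%), by limma with Benjamini-Hochberg adjustment. In all 299 rises both WT R837 2 h libraries lay above both WT untreated libraries, and in all 1093 falls both lay below. Among all tested genes this held for 749 that were higher (8.84%) and 3758 that were lower (44.3%). The excess of falls depended on how ranks were given. Because many summits fell in the same genes at 2 h, the shortened lists reached 3645 and 3449 genes in the WT R837 2 h libraries, against 6566 and 6678 in the WT untreated libraries, and the median change over all tested genes was -0.42. With 1 rank per gene and an equal number of ranked genes in every library, 304 genes (5.82% of 5226 tested) moved up and 307 (5.87%) moved down, around a median of 0; 241 of these rises and 302 of these falls were also called with ranks of summits. Leaving out WT R837 2 h replicate 1 left 451 falls and leaving out replicate 2 left 399. A fit to the 4 libraries alone called 80 rises and 47 falls among 7710 tested genes. Among the genes described below, that fit lost the calls of Nfkb1, Nfkb2, Relb, Nfkbiz, Dusp1, Tnfsf9, Il1b, Il15, Sod2, Acod1, Gbp5, Bcl2l11, Marcks, N4bp1, Cxcr4, Dlgap5, Hmox1, Klf10, Tfeb, Gpnmb and Calr, with adjusted p between 0.054 and 0.112. When only summits inside the annotated span were counted, the changes of Socs3 and Ifitm2 became 0, those of Tnf and Tnfaip2 turned negative without passing, and the calls of Astl (0.90), Bbs10 (-2.28) and Il1b (2.57) were lost. Ccl4 and Dusp1 kept changes of 8.63 and 3.53 with the span alone but missed the threshold (adjusted p = 0.0808 and 0.339).

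**Figure D1:**
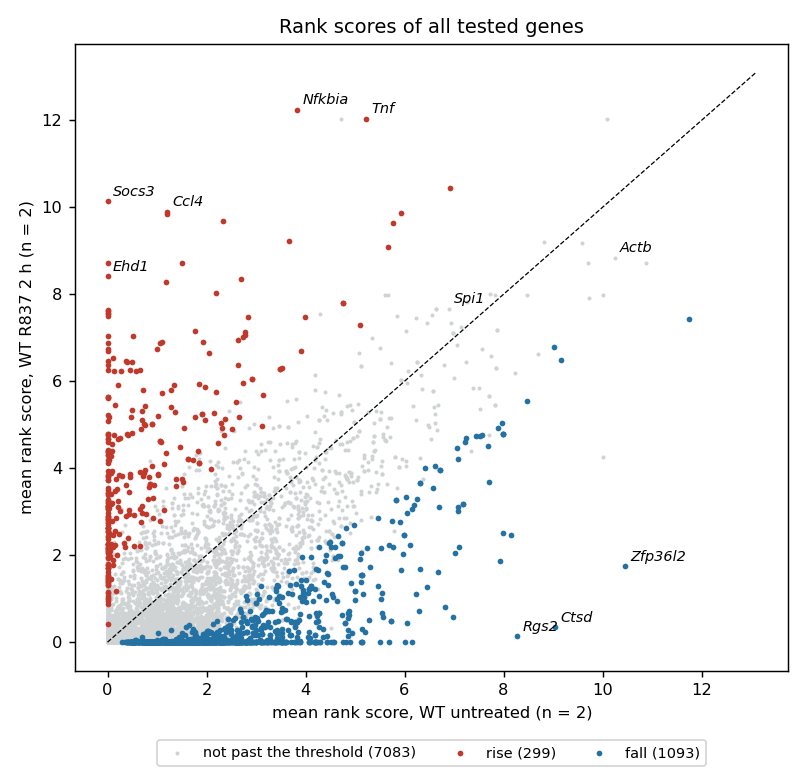
Mean rank score of each of the 8475 tested genes in WT R837 2 h (vertical axis) and WT untreated macrophages (horizontal axis), each the mean of 2 libraries; the dashed line marks equal scores. The 299 rises (red) include many genes at 0 without treatment, and most of the 1093 falls (blue) lie along the horizontal axis.

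Nfkbia, Tnf and Socs3 were among the strongest polymerase sites at 2 h. Nfkbia encodes IkB-alpha, the inhibitor that NF-kB itself induces, and lies at chr12:55489409-55492647 on the minus strand (GRCm38). Its best summit ranked 1 and 3 in the WT R837 2 h libraries, against 692 and 507 in the WT untreated libraries. The rank score was 8.42 ± 0.85 higher at 2 h (SE; adjusted p = 6.55e-05 by limma). Tnf, the gene of tumour necrosis factor at chr17:35199367-35202007, ranked 2 and 2 at 2 h, against 130 and 395 without treatment. Both Tnf ranks at 2 h were above both untreated ranks, and the rank score differed by 6.82 ± 0.74 (adjusted p = 0.000105). At 2 h the best Tnf summit lay 357 and 367 bp past the annotated gene end, within the 1 kb added to the span; with the span alone the change of Tnf was -5.21 and did not pass the test (adjusted p = 0.353). Socs3, which encodes an inhibitor of cytokine receptor signalling, ranked 11 and 5 at 2 h and had no summit in either WT untreated list, even as deposited. Its rank score was 10.14 ± 0.64 higher (adjusted p = 2.12e-06), which no other tested gene exceeded. Its summits at 2 h lay 272 and 236 bp past the gene end, so with the span alone the change was 0.

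Most genes in the list of the IkB family and the A20 pathway passed the test. Of 14 tested genes of the IkB family and the A20 pathway, 8 rose, none fell and 6 did not pass. Among all tested genes 3.53% rose and 12.9% fell. The median change of the 14 was 4.23, beside -0.42 over all tested genes. Tnfaip3 encodes A20, a ubiquitin-editing enzyme that restrains NF-kB signalling. It ranked 79 and 64 in the WT R837 2 h libraries and was absent from both WT untreated lists at this length; in the lists as deposited its untreated ranks were 15201 and 18929. The difference in rank score was 6.88 ± 0.63 (adjusted p = 3.21e-05 by limma). Tnip3, which encodes an A20-binding protein, ranked 35 and 50 at 2 h and was absent from both untreated shortened lists, a difference of 7.65 ± 0.86 (adjusted p = 0.000114). Bcl3 and Nfkbiz, nuclear members of the IkB family, ranked 51 and 79 (Bcl3) and 44 and 117 (Nfkbiz) at 2 h. Without treatment each had a summit in 1 of the 2 libraries, at rank 4138 (Bcl3) and 1946 (Nfkbiz). Nfkbie, the gene of IkB-epsilon, ranked 136 and 90 at 2 h, against 5748 and no summit without treatment, but its best summit lay in another gene's region too in 3 of the 4 libraries. Its rank score was 5.97 ± 0.68 higher (adjusted p = 0.000128).

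Promoters of 3 of these inhibitor genes and of the chemokine gene Cxcl2 are shown because a script found the NF-kB motif GGGNNNTTCC in them (both strands searched, matches in capitals, overlapping matches merged). Those of Ctsd and Rgs2, 2 of the largest falls, are shown beside them and hold no match in this window. Each sequence is from RefSeq (GRCm38.p6), written 5′ to 3′ on the gene's own strand from 250 bases before to 50 bases after the start. Nfkbia is at chr12:55492598-55492897 (minus strand), Tnfaip3 at chr10:19015361-19015660 (minus), Nfkbie at chr17:45555450-45555749 (plus), Cxcl2 at chr5:90903649-90903948 (plus), Ctsd at chr7:142387778-142388077 (minus) and Rgs2 at chr1:144004100-144004399 (minus).
Nfkbia: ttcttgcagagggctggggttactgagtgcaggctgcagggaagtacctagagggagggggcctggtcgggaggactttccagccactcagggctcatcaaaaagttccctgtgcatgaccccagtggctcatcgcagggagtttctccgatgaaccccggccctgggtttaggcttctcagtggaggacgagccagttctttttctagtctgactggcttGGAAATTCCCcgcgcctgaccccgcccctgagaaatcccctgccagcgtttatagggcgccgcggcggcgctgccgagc
Tnfaip3: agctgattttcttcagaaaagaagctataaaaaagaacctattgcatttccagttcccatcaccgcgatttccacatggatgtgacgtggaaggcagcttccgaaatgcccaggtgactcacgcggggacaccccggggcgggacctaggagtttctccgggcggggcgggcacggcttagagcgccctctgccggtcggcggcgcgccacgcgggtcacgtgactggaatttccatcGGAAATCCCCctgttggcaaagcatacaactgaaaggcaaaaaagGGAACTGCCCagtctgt
Nfkbie: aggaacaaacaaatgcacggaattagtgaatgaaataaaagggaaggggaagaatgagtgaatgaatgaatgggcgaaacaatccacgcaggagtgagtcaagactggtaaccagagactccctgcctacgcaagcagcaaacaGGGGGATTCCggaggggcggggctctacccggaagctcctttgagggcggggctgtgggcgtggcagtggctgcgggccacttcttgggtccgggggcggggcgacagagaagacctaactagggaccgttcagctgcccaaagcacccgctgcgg
Cxcl2: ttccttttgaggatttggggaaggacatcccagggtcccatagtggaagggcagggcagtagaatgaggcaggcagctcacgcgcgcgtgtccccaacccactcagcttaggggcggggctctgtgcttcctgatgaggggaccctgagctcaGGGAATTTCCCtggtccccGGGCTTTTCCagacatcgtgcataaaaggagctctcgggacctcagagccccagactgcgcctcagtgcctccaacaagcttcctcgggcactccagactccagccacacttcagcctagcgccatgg
Ctsd: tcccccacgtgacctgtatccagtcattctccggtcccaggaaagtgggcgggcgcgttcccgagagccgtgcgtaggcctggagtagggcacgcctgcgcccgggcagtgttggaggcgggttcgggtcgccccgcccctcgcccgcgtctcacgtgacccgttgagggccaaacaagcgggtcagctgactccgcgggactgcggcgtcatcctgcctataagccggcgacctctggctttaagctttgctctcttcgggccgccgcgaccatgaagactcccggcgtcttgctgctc
Rgs2: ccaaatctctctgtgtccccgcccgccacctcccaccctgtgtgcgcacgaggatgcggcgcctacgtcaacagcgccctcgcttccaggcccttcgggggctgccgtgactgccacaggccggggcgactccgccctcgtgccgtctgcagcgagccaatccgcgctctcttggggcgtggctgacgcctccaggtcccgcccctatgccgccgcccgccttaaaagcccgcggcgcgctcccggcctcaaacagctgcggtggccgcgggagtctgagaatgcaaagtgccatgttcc
The match at Nfkbia began at position -29 from the start, those at Tnfaip3 at -12 and 33, that at Nfkbie at -106 and those at Cxcl2 at -97, -96 and -78. Over all genes with a promoter sequence, 34 of 245 rises (13.9%) held the motif, as did 48 of 895 falls (5.36%), 448 of 6970 tested genes (6.43%) and 5.77% of 17492 protein-coding genes. Among genes described here, the promoters of Socs3, Tnf and Icam1 held no match in this window, and those of the falls Lfng and Lipa held 1 each. The AP-1 motif TGANTCA was in 6.12% of the rises, 5.14% of the falls and 4.53% of tested genes. The interferon response motif ISRE was in 8.57% of the rises, 2.01% of the falls and 3.24% of tested genes. For the TATA box these shares were 7.35%, 5.03% and 4.48%. In the same order they were 8.57%, 10.8% and 11.1% for the E-box and 1.63%, 2.79% and 3.62% for the CRE. The E-box and the CRE were thus less frequent in the rises than in tested genes. A match describes letters in this window and does not show that a factor was bound.

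Of the 5 NF-kB subunit genes, Nfkb1, Nfkb2 and Relb rose and none fell, beside 3.53% rises and 12.9% falls over all tested genes. The median change of the 5 was 3.23, beside -0.42 over all tested genes. Nfkb2, the precursor of p52, ranked 39 and 119 in the WT R837 2 h libraries, against 1337 and 1371 in the WT untreated libraries (4.31 ± 0.80 higher; adjusted p = 0.0032 by limma). Nfkb1, the precursor of p50, ranked 647 and 511, against 4444 and no summit (3.41 ± 0.61; adjusted p = 0.00255). Relb ranked 749 and 635, against 7106 and 5859 (3.23 ± 0.64; adjusted p = 0.00469). These 3 calls were lost in the fit to the 4 libraries alone (adjusted p = 0.0711 for Nfkb2, 0.0657 for Nfkb1 and 0.0566 for Relb). The genes of the subunits that activated receptors release first did not pass the test: Rel changed by 1.82 ± 0.80 (adjusted p = 0.141) and Rela by 0.25 ± 0.90 (adjusted p = 0.952).

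Chemokine genes had the highest share of rises of any list. Of 13 tested chemokine genes 10 rose and none fell, beside 3.53% rises and 12.9% falls over all tested genes. Their median change was 6.26. With 1 rank per gene 9 of 11 rose, beside 5.82% over all tested genes. Ccl3 and Ccl4, neighbouring genes for chemokines that attract monocytes and T cells, share a summit in the files. Ccl4 ranked 7 and 11 in the WT R837 2 h libraries and Ccl3 ranked 7 and 12, against 2555 and 5151 for both genes in the WT untreated libraries. The differences were 8.69 ± 0.81 for Ccl4 (adjusted p = 3.56e-05 by limma) and 8.63 ± 0.82 for Ccl3 (adjusted p = 3.94e-05), and they cannot be read as independent. Ccl5, which attracts T cells and monocytes, ranked 47 and 88 at 2 h and had no summit without treatment, even in the lists as deposited (7.03 ± 0.56; adjusted p = 1.44e-05). Cxcl1 and Cxcl2 encode neutrophil attractants, and Cxcl2 ranked 49 and 38 at 2 h. Cxcl1 ranked 84 and 109 at 2 h, and neither gene had a summit in any untreated list. Rank scores were 7.60 ± 0.78 higher for Cxcl2 (adjusted p = 7.39e-05) and 6.46 ± 0.72 for Cxcl1 (adjusted p = 0.00011). Ccl7, a monocyte attractant, ranked 91 and 112 at 2 h (6.38 ± 0.59; adjusted p = 3.41e-05).

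Cytokine genes were more mixed. Of 15 tested, 6 rose and none fell, with a median change of 0.65, beside 3.53% rises and 12.9% falls over all tested genes. Besides Tnf, the rises included Tnfsf9, the gene of 4-1BB ligand, at ranks 678 and 224 in the WT R837 2 h libraries and absent without treatment (4.43 ± 0.64; adjusted p = 0.000697 by limma). Il15 ranked 714 and 501 at 2 h, against 5400 and 4846 (3.10 ± 0.49; adjusted p = 0.00113). Il1b, the gene of interleukin-1 beta, ranked 1147 and 704 at 2 h and had no summit in the untreated lists; its difference of 3.22 ± 0.85 (adjusted p = 0.0203) no longer passed when any 1 of the 4 libraries was left out, with adjusted p between 0.0656 and 0.14. Il12b ranked 6469 and 1242 at 2 h and was absent from both shortened untreated lists (1.57 ± 0.86; adjusted p = 0.238). Il6, a cytokine gene often used as a readout of TLR signalling, had no summit in any of the 4 lists. Il10, whose product dampens macrophage activation and which counted in both the cytokine and the feedback list, ranked 653 and 460 at 2 h and was absent from the shortened untreated lists (3.94 ± 0.70; adjusted p = 0.00244).

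The list of feedback genes, mostly of the SOCS, DUSP and TTP families, held 5 rises and 3 falls among 18 tested (median change 0.26). Over all tested genes 3.53% rose and 12.9% fell. The rises were Socs3, Socs1 and Dusp1 of these families and the cytokine-related genes Il10 and Il1rn, and the falls were Zfp36l2, Zfp36l1 and Socs4; Socs1 and Socs4 are named after their values were seen. Dusp1, a phosphatase gene that turns off MAP kinases, was among the strongest sites in both conditions, at ranks 6 and 6 in the WT R837 2 h libraries, against 80 and 60 in the WT untreated libraries (3.53 ± 0.72; adjusted p = 0.00545 by limma). By the number of summits in place of the rank, Dusp1 changed by -0.29. Zfp36l2 and Zfp36l1, which encode RNA-binding proteins that promote decay of AU-rich messenger RNAs, were among the falls. Zfp36l2, at chr17:84183924-84187947, ranked 4356 and 1450 at 2 h, against 4 and 9 without treatment. The change of -8.71 ± 0.73 (adjusted p = 2.46e-05) was the lowest of all tested genes. Zfp36l1 ranked 7043 and 5064 at 2 h, against 237 and 107 without treatment (-5.23 ± 0.56; adjusted p = 9.67e-05), with a best summit that lay in another gene's region too in all 4 libraries.

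**Figure D2:**
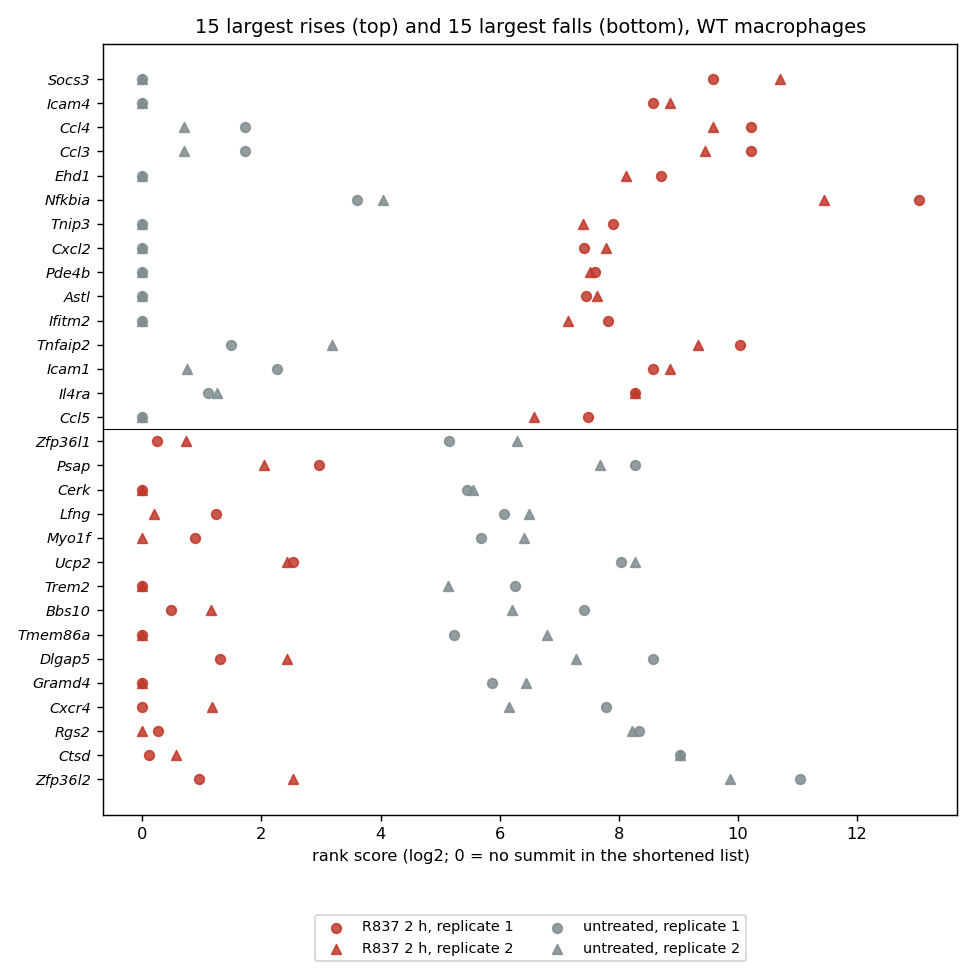
Rank score of the 15 largest rises and the 15 largest falls in each WT R837 2 h library (red) and each WT untreated library (grey); circles are replicate 1, triangles replicate 2, and 0 means no summit in the shortened list. In each gene the red and grey points do not overlap, which the rule for choosing these genes required.

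Of 18 tested genes of adhesion and surface activation, 11 rose and none fell, beside 3.53% rises and 12.9% falls over all tested genes. Their median change was 3.58, beside -0.42 over all tested genes. With 1 rank per gene 11 of 16 rose, beside 5.82% over all tested genes. Icam1, the gene of an adhesion molecule bound by leukocyte integrins, ranked 22 and 18 in the WT R837 2 h libraries, against 1743 and 5011 in the WT untreated libraries (7.21 ± 0.72; adjusted p = 5.85e-05 by limma). Its best summits at 2 h lay 891 and 946 bp past its end and are also the ones given to the neighbouring gene Icam4, so the rise listed for Icam4 (8.72 ± 0.57; adjusted p = 2.53e-06) rests on the same best summits although both genes count in the list. Il4ra, the gene of the interleukin-4 receptor alpha chain, ranked 27 and 27 at 2 h, against 3928 and 3533 (7.11 ± 0.61; adjusted p = 2.47e-05). Tlr2, the gene of a receptor for bacterial lipoproteins, ranked 92 and 67 at 2 h and had no summit in any untreated list (6.74 ± 0.78; adjusted p = 0.000143). Clec4d, a C-type lectin receptor gene, ranked 68 and 73, against 3712 and 4147 (5.80 ± 1.05; adjusted p = 0.00263).

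Further genes were among the 15 largest rises. Ehd1, which encodes a protein of endocytic recycling, ranked 20 and 30 in the WT R837 2 h libraries. Without treatment it was absent from the shortened lists and ranked 8706 and 8444 in the lists as deposited (8.42 ± 0.62; adjusted p = 7.55e-06 by limma). Pde4b, a phosphodiesterase gene that lowers cyclic AMP, ranked 43 and 46 at 2 h and 15427 and 10407 in the untreated lists as deposited (7.56 ± 0.76; adjusted p = 5.93e-05). Tnfaip2, a gene first known as induced by tumour necrosis factor, ranked 8 and 13 at 2 h, against 2976 and 922 (7.34 ± 0.79; adjusted p = 0.000102). Its best summits at 2 h lay 426 and 615 bp past the gene end, and with the span alone its change was -2.34 (adjusted p = 0.643). Ifitm2, an antiviral membrane protein gene, ranked 37 and 59 at 2 h with summits 167 and 202 bp past its end (7.49 ± 0.89; adjusted p = 0.000172); with the span alone the change was 0. Astl, an egg-cell protease gene, was listed among the rises only through a summit shared with Dusp2, and its call was lost when each summit was given to 1 gene (adjusted p = 0.798).

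Of 29 tested genes for signalling components of the TLR7 pathway itself, 5 rose and 2 fell, and the median change was 0. The falls were Fadd (-2.46 ± 0.71, adjusted p = 0.0315 by limma) and Tab1 (-2.46 ± 0.74, adjusted p = 0.0381). For these 2 falls the fit to the 4 libraries alone is not given. Over all tested genes 3.53% rose and 12.9% fell. Ikbke, the gene of an IkB kinase-related kinase, ranked 357 and 260 in the WT R837 2 h libraries and had no summit in the untreated lists (4.78 ± 0.63; adjusted p = 0.000389 by limma). The survival genes Birc3 and Cflar, which encode inhibitors of caspase activation, also rose. Birc3 ranked 187 and 134, against 5217 and 2931 (4.63 ± 0.63; adjusted p = 0.000495). Cflar ranked 153 and 147, against 3235 and 3703 (4.53 ± 0.68; adjusted p = 0.000757). The receptor gene Tlr7 had no summit in the WT R837 2 h lists, against ranks 5960 and 6361 in the WT untreated lists (-0.45 ± 0.56; adjusted p = 0.645). The adaptor gene Myd88 ranked 3196 and 2189, against 4533 and 6550 (1.04 ± 0.66; adjusted p = 0.308). N4bp1, the gene deleted in the other genotype of the series and known as a restraint on NF-kB-driven cytokine production, ranked 2467 and 957 at 2 h in these wild-type cells and was absent from the shortened untreated lists. Its rank score was 2.45 ± 0.66 higher (adjusted p = 0.0227). That call was lost with 1 rank per gene (adjusted p = 0.216), without WT R837 2 h replicate 2 (0.197) and without WT untreated replicate 1 (0.0691) or 2 (0.0766).

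Among 21 inducible enzymes and transporters there were 6 rises and 2 falls (median change 0.45). The shares over all tested genes were 3.53% for rises and 12.9% for falls. Sod2, mitochondrial superoxide dismutase, ranked 125 and 157 in the WT R837 2 h libraries, against 2062 and 5344 (4.57 ± 0.63; adjusted p = 0.000532 by limma). Ptges, the prostaglandin E synthase gene, ranked 375 and 286, against 7464 and 7092 (4.47 ± 0.67; adjusted p = 0.000757). Acod1, whose product makes itaconate, ranked 842 and 419 at 2 h and had no untreated summit (3.82 ± 0.74; adjusted p = 0.0039). Hmox1, heme oxygenase, was a fall in the same list, at rank 6172 and no summit at 2 h, against 481 and 704 (-3.63 ± 0.63; adjusted p = 0.00212). In the glycolysis list 1 of 20 rose and 1 fell. The rise was Pfkfb3, the gene of an enzyme that makes an activator of glycolysis, and the fall was Pfkfb4 of the same family (-2.32 ± 0.64; adjusted p = 0.0272). Pfkfb3 ranked 232 and 194, against 5058 and 5275 (4.61 ± 0.69; adjusted p = 0.000763). Of 15 antigen presentation genes 4 rose and none fell (median change 0.99), with H2-Q4 at ranks 459 and 504 and absent without treatment (4.13 ± 0.57; adjusted p = 0.000495). Of 29 interferon-stimulated genes 2 rose and none fell (median change 0.38). Gbp5, an interferon-inducible GTPase gene, was 1 of those, at ranks 904 and 664 and absent without treatment (3.44 ± 0.50; adjusted p = 0.000707).

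**Figure D3:**
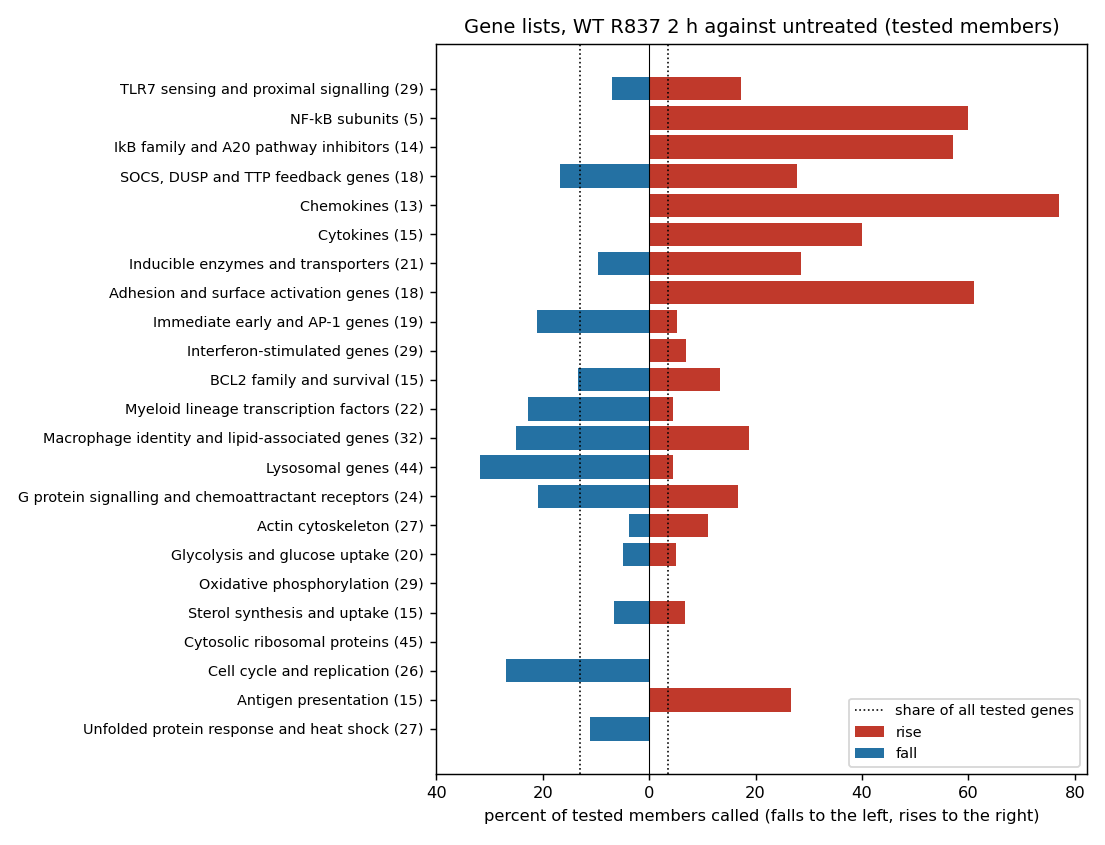
Percent of the tested members of each gene list that rose (red, right) or fell (blue, left) in WT R837 2 h against WT untreated macrophages, with the number tested in brackets; dotted lines mark the share of all tested genes, 3.53% for rises and 12.9% for falls. Chemokine genes have the highest share of rises. Several lists lie beyond the dotted line for falls, the lysosomal list farthest. The cell cycle, macrophage identity, myeloid factor, immediate early and G protein lists are among the others.

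Lysosomal genes held the most falls of any list. Of 44 tested, 14 fell and 2 rose, with a median change of -0.95, beside -0.42 over all tested genes. The 2 rises were Ctsc (4.12 ± 0.90, adjusted p = 0.00768 by limma) and Ctsz (2.39 ± 0.71, adjusted p = 0.0364). Ctsz is named after its value was seen. The fit to the 4 libraries alone is not given for these 2 genes. With 1 rank per gene 10 of 36 fell and 2 rose. The share of falls over all tested genes was 12.9%, and 5.87% with 1 rank per gene. Ctsd, the gene of the aspartyl protease cathepsin D at chr7:142375910-142387827, ranked 7769 and 5668 in the WT R837 2 h libraries, against 16 and 16 in the WT untreated libraries. Its rank score was -8.70 ± 0.53 (2 h minus untreated; adjusted p = 1.94e-06 by limma). The number of Ctsd summits was 2 and 2 at 2 h, against 1 and 1, so that a count of summits gave a change of 0.58. Psap encodes prosaposin, the precursor of lysosomal lipid-handling proteins, and ranked 1079 and 2038 at 2 h, against 27 and 41 (-5.48 ± 0.56; adjusted p = 7.3e-05). Lipa, lysosomal acid lipase, ranked 4180 and no summit, against 234 and 201 (-4.77 ± 0.82; adjusted p = 0.00194). Ctsb, cathepsin B, ranked 1002 and 960, against 58 and 67 (-3.98 ± 0.76; adjusted p = 0.00372), with a best summit that lay in another gene's region too in 3 of the 4 libraries. By the number of its summits Ctsb changed by 1.79 (adjusted p = 0.0151), the opposite direction. Tfeb, the gene of a transcription factor that drives lysosomal genes and a member of the myeloid factor list, was absent at 2 h and ranked 800 and 1503 without treatment (-2.94 ± 0.59; adjusted p = 0.00525), a call that was lost with 1 rank per gene (adjusted p = 0.121).

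Macrophage identity and lipid-associated genes went in both directions, with 6 rises and 8 falls among 32 tested (median change -0.39). Over all tested genes 3.53% rose and 12.9% fell. Trem2, a lipid-sensing receptor gene, had no summit in the WT R837 2 h lists, against ranks 110 and 239 in the WT untreated lists (-5.69 ± 0.50; adjusted p = 2.64e-05 by limma). Gpnmb, a glycoprotein gene of lipid-laden macrophages, ranked 3533 and 1924, against 78 and 145 (-4.62 ± 0.53; adjusted p = 0.000132). Plin2, the lipid droplet coat protein gene, was absent at 2 h and ranked 424 and 305 without treatment (-4.55 ± 0.81; adjusted p = 0.00243). Msr1, the gene of scavenger receptor A, was a rise, at ranks 413 and 399 at 2 h and absent from the untreated shortened lists (4.37 ± 0.69; adjusted p = 0.00107). Marcks, a substrate gene of protein kinase C, ranked 76 and 29, against 1053 and 1328 (4.65 ± 0.69; adjusted p = 0.000739). Csf1r, the receptor gene for macrophage colony-stimulating factor, ranked 152 and 140, against 47 and 45, and its change of -1.67 ± 0.65 did not pass the test (adjusted p = 0.101). Spi1, which encodes the myeloid factor PU.1, ranked 53 and 32, against 44 and 113 (0.78 ± 0.60; adjusted p = 0.409). In the list of myeloid lineage transcription factors, which holds Spi1, 5 of 22 fell and 1 rose (median change -0.10), with Cebpa among the falls. Cebpa ranked 1319 and 2589, against 61 and 62 (-4.91 ± 0.57; adjusted p = 0.000145).

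Further genes were among the 15 largest falls. Rgs2 encodes an inhibitor of G protein signalling and lies at chr1:143999338-144004149. It ranked 7013 and no summit in the WT R837 2 h libraries, against 26 and 28 in the WT untreated libraries (-8.15 ± 0.49; adjusted p = 1.94e-06 by limma). Cxcr4, the receptor gene for CXCL12, had no summit and rank 3734, against 38 and 117 (-6.39 ± 0.63; adjusted p = 5.47e-05). Gramd4 had no summit in either WT R837 2 h list, against ranks 144 and 97 (-6.15 ± 0.45; adjusted p = 7.04e-06). Falls of -5.50 to -6.01 were also measured for Cerk, Lfng, Myo1f, Ucp2, Bbs10 and Tmem86a, which encode ceramide kinase, a Notch-modifying glycosyltransferase, a myosin, a mitochondrial carrier, a chaperonin-like protein of cilia and a lysoplasmalogenase. Dlgap5, a mitotic spindle gene, was listed at -6.06 ± 1.70 (adjusted p = 0.0288), but its best summits lay 469 to 905 bp outside the gene and in another gene's region in 3 libraries, and the call was lost without any 1 of the 4 libraries. In the cell cycle list 7 of 26 tested genes fell and none rose (median change -0.54). Over all tested genes 12.9% fell and 3.53% rose. With 1 rank per gene 1 of 10 cell cycle genes fell, beside 5.87% over all tested genes. Immediate early and AP-1 genes held 4 falls and 1 rise among 19 tested (median change -0.78). Atf3, a stress-responsive transcription factor gene, ranked 4428 and 6688, against 309 and 323 (-4.11 ± 0.67; adjusted p = 0.00132). Klf10 ranked 4296 and no summit, against 984 and 196 (-3.77 ± 0.70; adjusted p = 0.00302). Ier3, an early response gene of cell survival, was the rise, at ranks 41 and 25, against 2869 and 1190 (5.85 ± 0.88; adjusted p = 0.000816).

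None of 45 tested genes of cytosolic ribosomal proteins passed the test, with a median change of 0.31, and all 45 had a summit in both WT R837 2 h libraries, against 44 and 45 in the WT untreated libraries. None of 29 tested genes of oxidative phosphorylation passed, with a median change of -0.41. In the actin cytoskeleton list 3 of 27 rose and 1 fell (median change -0.36). In the sterol list 1 of 15 rose and 1 fell (median change -0.49). Actb, the beta-actin gene, ranked 14 and 24 at 2 h, against 8 and 6 without treatment (-1.40 ± 0.88; adjusted p = 0.3 by limma). Of 27 genes of the unfolded protein response and heat shock, 3 fell and none rose, beside 12.9% falls over all tested genes. The median change was -0.80, beside -0.42 over all tested genes. Calr was 1 of the falls and ranked 490 and 199, against 59 and 39 (-2.70 ± 0.64, adjusted p = 0.0121 by limma). The Calr call was lost without WT R837 2 h replicate 1 (adjusted p = 0.119) or WT untreated replicate 2 (0.0527). Of 24 genes of G protein signalling and chemoattractant receptors, 4 rose and 5 fell. Of 15 BCL2 family and survival genes 2 rose and 2 fell. The shares over all tested genes were 3.53% for rises and 12.9% for falls.

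Polymerase summits lay more in gene bodies and within 1 kb of 3′ ends, on either side, at 2 h, and less at gene starts. In the shortened lists 26.1% ± 1.9 of summits were within 1 kb of a gene start in the WT R837 2 h libraries, against 49.5% ± 1.5 in the WT untreated libraries (SD, n = 2 each). In gene bodies lay 48.7% ± 1.9 of summits at 2 h, against 25.2% ± 0.94 without treatment. Within 1 kb of a gene's 3′ end lay 8.95% ± 0.15, against 3.84% ± 0.10. Neither group overlapped the other in these 3 shares, but an exact permutation test of 2 against 2 libraries cannot go below the two-sided p of 0.33 that each gave. The gap was smaller in the lists as deposited, which are longer without treatment: 24.2% ± 1.6 at 2 h, against 32.3% ± 3.5, at gene starts, and 50.9% ± 1.2, against 38.3% ± 2.5, in gene bodies. Between genes, more than 5 kb from any, lay 3.75% ± 0.017 of summits in the shortened lists at 2 h, against 6.97% ± 0.71. In the lists as deposited this gap was larger, with 3.67% ± 0.012, against 9.51% ± 0.94.

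**Figure D4:**
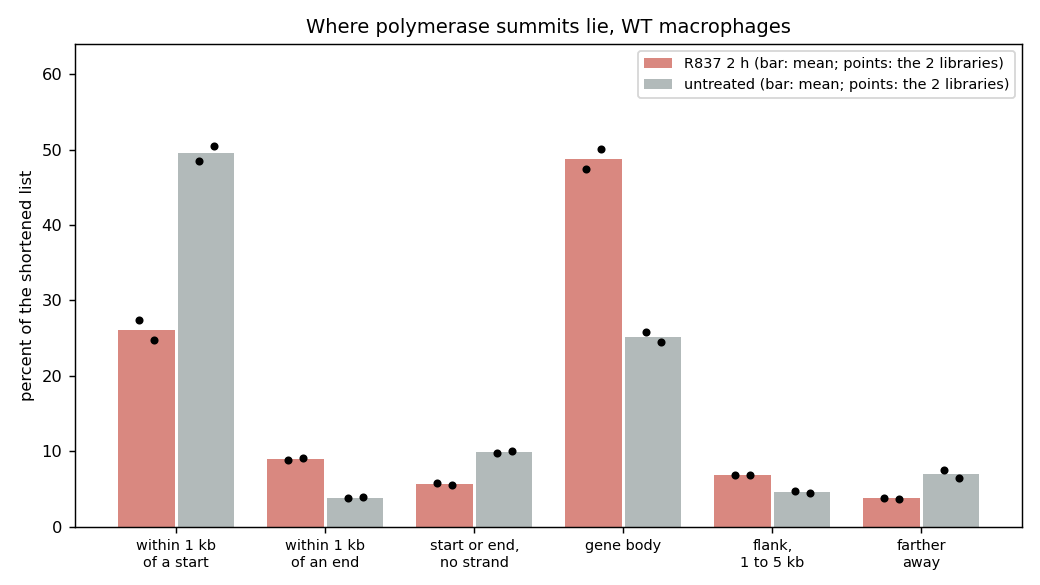
Percent of summits of the shortened lists by position in WT R837 2 h (red) and WT untreated libraries (grey); bars are means and points the 2 libraries of each group. Gene starts held 26.1% at 2 h and 49.5% without treatment, and gene bodies 48.7% and 25.2%.

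The regions of the genes that rose held 26.7% and 26.7% of all summits in the shortened WT R837 2 h lists, against 2.81% and 2.75% in the WT untreated lists, while regions of the falls held 4.93% and 4.86%, against 19.0% and 19.2%. A rise with a summit had on average 7.68 and 7.66 summits at 2 h, against 1.56 and 1.63 without treatment. Among all tested genes with a summit the mean was 2.35 and 2.46, against 1.34 and 1.34. The shares and means were computed on genes chosen by their rank scores, and are given as a description. For 107 rises with a known strand and a summit in all 4 lists, the best summit was within 500 bp of the annotated start in 32 and 29 genes at 2 h, against 54 and 55 without treatment. Its median distance from the start was 1472 and 1451 bp at 2 h, against 208 and 193 bp. For 1696 genes that did not pass the test the best summit was within 500 bp of the start in 58.3% and 58.1% at 2 h, against 67.6% and 68.6%. Of 47 rises whose best summit was within 500 bp of the start in both untreated libraries, 14 had it more than 1 kb downstream in both WT R837 2 h libraries; the count was 67 of 1065 for genes not past the test and 1 of 92 for falls. The best summit lay past the annotated gene end in 17.6% and 18.8% of rises at 2 h, against 7.69% and 3.91%, and in 10.7% and 10.7% of genes not past the test, against 4.85% and 4.18%. Of the 15 largest rises, 12 have a known strand, and in 5 of those (Socs3, Ifitm2, Tnfaip2, Icam1 and Il4ra) it was past the gene end in both WT R837 2 h libraries. Distances run from the outermost annotated start, so an inner start, as in a long gene such as Pde4b, counts as gene body.

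**Figure D5:**
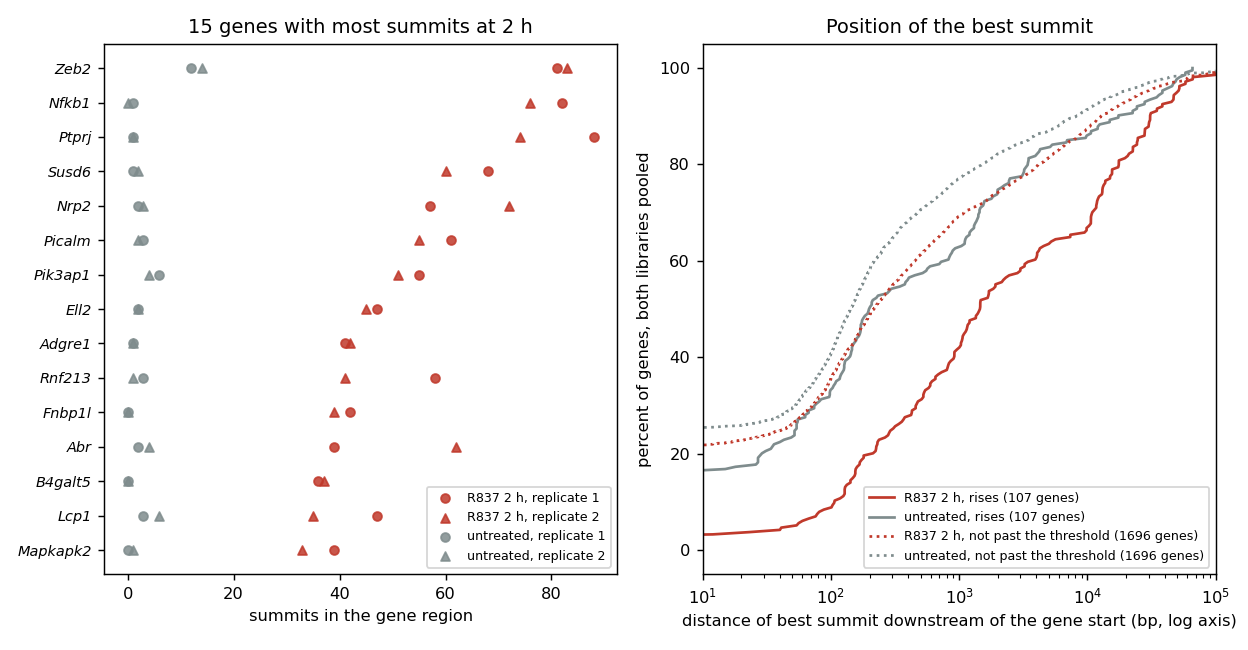
Left, the number of summits of the shortened lists in the regions of the 15 genes with the most at 2 h (lower of the 2 WT R837 2 h libraries), chosen after their values were seen; right, the cumulative share of genes by the distance of their best summit from the annotated start (log axis; distances under 10 bp, upstream ones included, enter at the left edge), for 107 rises (solid) and 1696 genes not past the test (dotted), both libraries pooled. The red curve of the rises lies to the right of the grey one along most of its length.

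Genes covered by many summits at 2 h were chosen after their values were seen. Nfkb1 held 82 and 76 summits in the WT R837 2 h lists, against 1 and 0 in the WT untreated lists. Ptprj, a receptor phosphatase gene, held 88 and 74, against 1 and 1. Adgre1, which encodes the macrophage marker F4/80, held 41 and 42, against 1 and 1, and Cflar held 32 and 29, against 2 and 2. Zeb2, a transcription factor gene of macrophages, held 81 and 83, against 12 and 14, and its rank score was not called. The 15 genes with the most summits at 2 h were picked by their counts at 2 h. Their higher counts at 2 h than without treatment are therefore a description and not an independent result.

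Replicates shared more summits with each other than with the other condition. Within 500 bp, 59.9% of the summits of one WT R837 2 h list had a partner in the other, and 71.6% did between the WT untreated lists (mean of both directions). Between a WT R837 2 h and a WT untreated list the share was 33.7% to 36.4%.

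The response at 2 h was set beside that of N4bp1 KO macrophages. In KO cells the change in rank score was 9.09 for Socs3, 8.03 for Ccl4, 7.51 for Nfkbia and 7.28 for Tnf, beside 10.14, 8.69, 8.42 and 6.82 in WT cells. The KO change was -9.03 for Zfp36l2 and -7.04 for Rgs2, beside -8.71 and -8.15 in WT cells. In a test of the KO response minus the WT response by limma, 0 of 8475 genes passed (0%), with a smallest adjusted p of 0.0509 and 622 genes at an unadjusted p under 0.05. That count was close to the threshold and unstable: it became 306 and 239 without WT untreated replicate 1 and 2, 219 and 239 without KO untreated replicate 1 and 2, and 5 to 17 without any 1 of the 4 R837 2 h libraries. In those fits the lone library of a group is assumed to vary like the others. Il4ra had the smallest p of the named genes in that test, at ranks 815 and 312 in KO R837 2 h and 3555 and 5460 in KO untreated libraries, a change of 3.13 in KO cells and of 7.11 in WT cells; the difference of -3.98 ± 0.86 did not pass (adjusted p = 0.121).

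Later WT libraries differed from the 2 h ones in fewer genes than untreated did. Relative to 2 h, 100 genes ranked higher after 4 h (1.18%) and 84 lower (0.991%) by limma. After 6 h there were 92 higher (1.09%) and 163 lower (1.92%). The 4 h and 6 h libraries carry sample codes of other series than the untreated and 2 h ones, so time and code series cannot be told apart. The 4 h minus 2 h count fell to 27 higher and 55 lower without WT R837 2 h replicate 2 and to 40 lower without WT R837 4 h replicate 2. For 6 h it was 17 higher without WT R837 2 h replicate 2 and 60 lower without WT R837 6 h replicate 2. Nfkbia was among the strongest sites throughout, ranking 1 and 3 at 2 h, 22 and 8 at 4 h, then 9 and 4 in the 6 h libraries. Icam1 ranked 22 and 18 at 2 h, then 527 and 461 in the 4 h libraries and 422 and 1134 in the 6 h libraries. Cxcl1 ranked 84 and 109 at 2 h, then 4140 and 1170 in the 4 h libraries and 5234 and no summit in the 6 h libraries.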

How the data were processed

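RNA polymerase II ChIP-seq libraries of wild-type macrophages, 2 at R837 2 h and 2 untreated, were analysed as summit lists. Reads were aligned with GSNAP to GRCm38 and peaks were called with MACS2, per the submitters' processing notes; versions, thresholds and the control are not given in the sources used here. The deposited summit scores are on a −log10 scale of a p- or q-value computed by the authors; which of the 2 is not stated. Read depth is unknown. The lowest score in each shortened list was 11.4 and 11.8 at 2 h, against 22.2 and 19.6 without treatment, so a rank in one library does not stand for the same score in another.

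Lists were cut to 8394 summits and genes were ranked as described above, over 21887 protein-coding genes of RefSeq on GRCm38.p6, of which 17492 have 1 known strand. The 8475 genes whose region held a summit in 2 or more of the 16 libraries were tested with limma 3.58.1 in R 4.3.3 (a mean per group over 8 groups of 2, intensity trend, empirical Bayes), with Benjamini-Hochberg adjustment and a threshold of 0.05; all adjusted p-values are from limma. A summit within 1 kb of several genes counted for each. The code was tested on simulated data. Replicate numbers were not used as pairs (correlation of same-numbered deviations between the 2 groups 0.026). That value cannot exclude pairing, and the labels do not state it. Of the distinct summit scores of WT R837 2 h replicate 1, 79.9% also occurred in WT untreated replicate 1. The share was 13.7% in WT R837 2 h replicate 2 and 16.2% in WT untreated replicate 2. The reason was not tested.

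Genes were named by rule: the 15 largest rises and falls whose libraries did not overlap, and 12 fixed genes. So were up to 6 called and 2 uncalled members of each list with the largest changes. Not all genes so named are described above, and those left out include rises and falls. The choice of which to describe was not part of the rule. Members, lists and tests were chosen with earlier results of these data known. Alternatives to each step, with their effect, are given at the end.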

Additional observations from a re-analysis of the deposited data

Results flagged for a closer look

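Some genes of the 2 h response differed between 2 h and later times in WT macrophages, by limma with adjustment over 8475 genes. All values are differences in rank score between means of 2 libraries each. Time and series of sample codes cannot be told apart in them.

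Some adhesion and chemokine genes ranked lower later, and others did not pass the test. The difference 4 h minus 2 h was -6.30 for Icam4, -4.63 for Icam1, -4.52 for Cxcl1 and -2.99 for Ccl5, with adjusted p between 0.000171 and 0.0128. The difference 6 h minus 2 h was -6.38 for Icam4, -5.12 for Icam1, -6.11 for Cxcl1, -5.98 for Ccl5 and -3.55 for Cxcl2, with adjusted p between 0.000172 and 0.0298. Icam4 and Icam1 share their best summit at 2 h. For the chemokine genes Ccl4 and Ccl3 the difference 4 h minus 2 h was 2.34 and 2.40 and did not pass (adjusted p = 0.198 and 0.19). Tnfaip2 was lower by -5.91 (4 h minus 2 h; adjusted p = 0.00264) and -4.28 (6 h minus 2 h; adjusted p = 0.0122).

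Nfkbie, the gene of an NF-kB inhibitor, differed by -4.61 at 4 h and -5.87 at 6 h. At 6 h, Nfkb1 differed by -2.95, Relb by -3.14 and Tnfaip3 by -2.55, the last at an adjusted p of 0.0464. Nfkbia (4 h minus 2 h -2.94; adjusted p = 0.107) and Tnip3 (-0.35; adjusted p = 1) did not pass. Tlr2 differed by -4.00 at 4 h and -5.89 at 6 h, Gbp5 by -3.34 and -3.44, H2-Q4 by -3.29 and -4.13, Bcl2l11 by -4.80 and -4.59, and Il15 by -3.81 at both times. The rise of Bcl2l11 at 2 h (3.14; adjusted p = 0.00378) was lost in the 4 libraries alone (adjusted p = 0.084), with each summit given to 1 gene (0.233) and with the lists as deposited (0.0523).

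Hmox1, a fall at 2 h, was 3.69 higher at 4 h and 6.86 higher at 6 h than at 2 h. Ctsd was 2.70 and 3.68 higher, Atf3 was 3.91 higher at 4 h, and Isg15, an interferon-stimulated gene that was not called at 2 h, was 5.17 higher at 4 h (adjusted p = 0.00327). Actb was 3.70 higher at 6 h than at 2 h (adjusted p = 0.0424).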

How the results depend on the processing

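Scores carry no depth, ranks compare places in a list and not amounts, and 2 libraries a group limit precision. The 299 rises became 266 with the 5000 best summits, 200 with the lists as deposited and 80 in the 4 libraries alone. The 1093 falls became 714, 4307 and 47 in the same order, 307 with 1 rank per gene and 597 in the 8 untreated and 2 h libraries. Leaving out 1 library gave 200 to 240 rises and 399 to 1262 falls. With the number as a replicate block there were 284 rises and 1018 falls, of which 283 and 994 were called without it, and no named call changed. Genes whose response differed between KO and WT numbered 28 with the span alone, 7 with each summit for 1 gene, 172 with summits counted, 47 with a summit in at least 1 library, 24 without KO R837 6 h replicate 2, and 5 to 306 without 1 library. Without 1 library, 4 h against 2 h gave 27 to 114 higher and 40 to 88 lower genes, and 6 h against 2 h 17 to 125 and 60 to 111.

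Direction turned for Tnfaip2 (-2.34) and Tnf (-5.21) with the span alone; for Tnfaip2 (-0.50), Ctsd (0.58), Dusp1 (-0.29), Ier3 (-0.21), Csf1r (1.38), Ctsb (1.79) and Calr (0.29) with summits counted; and for Rela (-0.80), Myd88 (-0.0088) and Spi1 (-0.28) with the lists as deposited. Rela ranged from -0.68 to 1.18 without 1 library. Counting summits also lost 25 named calls, Nfkbia, Icam1 and Rgs2 among them. Except for the span, the cause was not tested. The start share differed by -8.15 points with the lists as deposited and -25.6 with 5000 summits, the body share by 12.6 and the share at either gene end by -6.89 with the lists as deposited, and the share at either end by -19.4 at 2 kb. Overlap of the 2 h replicates was 42.3% at 200 bp and 73.2% at 1000 bp, and that of the untreated replicates 60.7% and 77.2%. Mean ranks for ties, leaving out KO R837 6 h replicate 2, and the alternatives for positions, later times and KO replicates were chosen after seeing the data.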

Other observations

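Genes chosen after their values were seen add to the picture at 2 h. Fth1, the ferritin heavy chain gene, was among the strongest sites in both conditions, at ranks 4 and 1 in the WT R837 2 h libraries and 12 and 5 in the WT untreated libraries, and was not called (adjusted p = 0.18 by limma). Jak2, the gene of a cytokine receptor kinase, held 29 and 31 summits at 2 h, against 0 and 1 without treatment. Ell2, which encodes an elongation factor of RNA polymerase II, held 47 and 45, against 2 and 2.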
